A study of Homo sapiens with 89 samples.

Results

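The CCT chaperonin genes are described here in RNA sequencing of polyadenylated RNA from human neuroblastoma cell lines. The members are the genes of the 8 ring subunits, TCP1, CCT2, CCT3, CCT4, CCT5, CCT6A, CCT7 and CCT8, taken by symbol. They were chosen with earlier results of these data known. They make up 8 of the 57905 gene rows that the count tables of the 2 lines share, and all 8 passed the filter on low counts in both lines. The study as a whole asks how the transcription factor MYCN works with the nuclear RNA exosome, and 15 RNA-seq libraries in 5 groups of 3 are used here.

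IMR-32 is an adrenergic neuroblastoma line with amplified MYCN, and its cells carried a doxycycline-inducible short hairpin RNA against EXOSC10, a 3'-5' exonuclease subunit of the nuclear exosome. The control libraries had no doxycycline, and their column names in the count table read EtOH (ethanol), while the depleted libraries had 1 µg/ml doxycycline. SHEP is a mesenchymal neuroblastoma line without MYCN amplification. One SHEP group had no doxycycline and is labelled as having no MYCN. The other groups had 1 µg/ml doxycycline to induce wild type MYCN or MYCN 3A, which the labels describe as a triple mutant that cannot bind RNA. Doxycycline therefore differed together with the hairpin or the transgene against the groups without it, and its effect cannot be told apart from theirs. The labels do not say whether libraries of a group came from separate cultures, so every p-value below measures the spread between these libraries, which may be technical. Nor do they say whether each transgenic line was a pool or a single clone. Which transgenic cells the SHEP group without doxycycline came from is not stated here. Any difference between the cells that carry each form cannot be told apart from that of the form itself.

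CCT, also called TRiC, is the chaperonin of the eukaryotic cytosol: stacked rings, each built from a single copy of every subunit, that close over an unfolded protein and use ATP to fold it. Actin and tubulin are its classic clients, and many proteins with WD40 repeats, such as the beta subunits of heterotrimeric G proteins and the mitotic activator CDC20, also need it. Within a ring the subunits differ in how tightly they bind ATP: TCP1 (CCT alpha), CCT2 (beta), CCT4 (delta) and CCT5 (epsilon) lie on the side that binds it tightly, and CCT3 (gamma), CCT6A (zeta), CCT7 (eta) and CCT8 (theta) on the other. Prefoldin hands nascent actin and tubulin to CCT, and phosducin-like proteins assist it.

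The genes lie on 7 chromosomes of hg19, the build of the count tables. TCP1 is at chr6:160199530-160210781 on the minus strand, CCT2 at chr12:69979114-69995350 on the plus strand, CCT3 at chr1:156278759-156337664 on the minus strand and CCT4 at chr2:62095224-62115939 on the minus strand. CCT5 is at chr5:10250033-10266524, CCT6A at chr7:56119323-56131682 and CCT7 at chr2:73460548-73480149, all on the plus strand, and CCT8 is at chr21:30428126-30446118 on the minus strand. Their counts are over annotated exons, and the union of those exons ran from 2830 bases in CCT4 to 5839 bases in CCT5.

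Promoter windows of 250 bases before and 50 after an annotated start were taken from RefSeq in the build GRCh38.p14, and 7 of the 8 members had a window, 9 windows in all. CCT6A had none. The only window of CCT5 holds coding sequence before the annotated start used, so the region before its first exon was not searched. CCAAT, the box bound by NF-Y, was searched as an exact match on both strands, so ATTGG is the same box on the other strand. It was found in windows of 4 members, CCT2, CCT3, CCT8 and TCP1, while 39.7% of all 27305 genes with a window have it. CACGTG, the E-box that MYC proteins bind, was in no member's window, against 8.77% of all genes, which says only that these 6 letters are not in these windows. GAANNTTC, a pair of facing heat shock factor units, was in windows of 2 members, CCT2 and TCP1, against 8.21% of all genes. CCT4, the only member called in all 4 comparisons below, has no CCAAT box in its windows. A part of the box in the differences was not tested. The 250 bases before the start are printed for the 4 members with a CCAAT box. Each runs 5′ to 3′ along the gene, and capitals mark CCAAT or ATTGG and, in TCP1, also GAAGGTTC, a match to GAANNTTC. In CCT2 only the upstream of its 2 windows is printed, and its GAANNTTC match lies in the other.
CCT3, chr1:156338293-156338542, minus strand: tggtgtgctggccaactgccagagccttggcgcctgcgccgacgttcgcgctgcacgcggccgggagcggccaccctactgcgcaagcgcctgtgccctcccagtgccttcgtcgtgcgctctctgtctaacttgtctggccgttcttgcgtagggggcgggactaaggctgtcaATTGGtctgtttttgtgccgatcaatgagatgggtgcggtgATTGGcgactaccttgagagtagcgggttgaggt
CCT8, chr21:29073649-29073898, minus strand: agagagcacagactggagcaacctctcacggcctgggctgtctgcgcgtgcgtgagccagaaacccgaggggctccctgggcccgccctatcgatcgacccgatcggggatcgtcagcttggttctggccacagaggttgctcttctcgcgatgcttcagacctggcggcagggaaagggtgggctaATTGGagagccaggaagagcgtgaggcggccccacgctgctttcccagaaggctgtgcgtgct
TCP1, chr6:159789603-159789852, minus strand: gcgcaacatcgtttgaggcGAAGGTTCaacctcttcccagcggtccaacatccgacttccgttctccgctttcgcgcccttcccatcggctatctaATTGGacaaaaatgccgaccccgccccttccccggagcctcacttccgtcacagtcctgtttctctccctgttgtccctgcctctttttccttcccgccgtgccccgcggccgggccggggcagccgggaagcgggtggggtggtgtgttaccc
CCT2, chr12:69585209-69585458, plus strand: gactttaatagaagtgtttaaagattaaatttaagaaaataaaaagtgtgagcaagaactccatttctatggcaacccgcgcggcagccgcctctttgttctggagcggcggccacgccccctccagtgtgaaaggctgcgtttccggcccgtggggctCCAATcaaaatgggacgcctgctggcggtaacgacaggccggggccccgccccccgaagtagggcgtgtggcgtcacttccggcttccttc
The boxes start 75 and 34 bases before the start of CCT3 and 63, 154 and 91 bases before those of CCT8, TCP1 and CCT2. CCT3 is the only printed window with a pair of them.

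The libraries held 16394148 to 26193478 counts in IMR-32 and 11638859 to 15353505 in SHEP. After the filter, 17103 genes of IMR-32 and 14923 of SHEP were tested, and a gene is called higher or lower where the adjusted p of edgeR's quasi-likelihood test was under 0.05. EXOSC10 fell from 63.9 to 74.6 CPM, the counts brought to a common library size with TMM, in the control libraries to 46.1 to 49.0 in the depleted ones, by 0.54 on the log2 scale (edgeR adjusted p = 2.27e-08). In SHEP, EXOSC10 differed by 0.20 in the libraries labelled wild type (edgeR adjusted p = 0.195), fell by 0.40 in those labelled 3A (0.0095), and was higher with the wild type label than with the 3A label by 0.60 (2.5e-04). Its part in the SHEP differences was not tested. The row of MYCN held 0 to 10 counts in each of the 9 SHEP libraries, those labelled wild type or 3A included, so it gives no check of the SHEP labels. Those groups are called the libraries labelled wild type and labelled 3A below, and every SHEP direction rests on the labels alone. Why the row is near 0 was not tested. The summed adrenergic markers lay at 3440 to 3730 CPM in IMR-32 control libraries and at 71.5 to 89.0 CPM in SHEP, and the summed mesenchymal markers at 614 to 647 CPM in IMR-32 control libraries. In SHEP the latter summed to 6930 to 7340 CPM without MYCN, 7340 to 7490 in the libraries labelled wild type and 6020 to 6410 in those labelled 3A. Markers of epithelial and endothelial cells summed to at most 1.37 CPM in any library, those of leukocytes to at most 16.5 and those of Schwann cells to at most 22.7.

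All 8 subunit genes were among the well expressed genes of both lines. Together they took 0.292 to 0.311% of all counts in the IMR-32 control libraries and 0.615 to 0.735% in the SHEP libraries. CPM divided by the kilobases of exon is written RPKM below. On that scale the IMR-32 control libraries had CCT3 far above the other subunits, at 270.0 ± 8.21 RPKM (SD, n = 3). CCT7 followed with 122 ± 0.169, CCT4 with 74.5 ± 5.22, TCP1 with 70.7 ± 2.72, CCT6A with 61.6 ± 3.85, CCT8 with 60.0 ± 1.21, CCT5 with 55.2 ± 1.55 and CCT2 with 49.7 ± 1.50 RPKM (SD, n = 3 each). The libraries of CCT4 and TCP1 overlapped, as did those of CCT6A and CCT8, and all other neighbours in this order were apart. The length counted is the union of exons of all annotated isoforms, which is long for CCT5 and TCP1, so an RPKM value understates a gene whose long exons are rarely used.

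In SHEP without MYCN the order was another and the spread over subunits smaller. CCT4 led with 258 ± 4.08 RPKM, before CCT7 with 222 ± 13.7, CCT6A with 208 ± 3.23, CCT8 with 206 ± 5.92, CCT3 with 193 ± 5.44, CCT2 with 157 ± 5.14, CCT5 with 143 ± 2.22 and TCP1 with 133 ± 3.95 RPKM (SD, n = 3 each). The libraries of CCT7 and CCT6A overlapped, as did those of CCT6A and CCT8, and the other neighbours were apart. By RPKM, CCT3 thus stood first in IMR-32 control libraries and behind CCT4, CCT7, CCT6A and CCT8 in these. The coefficient of variation over the 8 subunits was 76.9 to 78.2% in the IMR-32 control libraries, 53.6 to 55.5% in the depleted ones and 22.4 to 30.7% in the SHEP libraries. Set side by side, 7 of the 8 subunits had more CPM in SHEP without MYCN than in IMR-32 control libraries, from 1.82 times for CCT7 to 3.47 times for CCT4. CCT3 had 0.714 times its IMR-32 level, and the median over 12952 genes tested in both tables was 0.948 times. The ring was not alone in this: the mitochondrial chaperonin genes HSPD1 (1452 against 501 CPM) and HSPE1 (293 against 98.1 CPM) were also higher in SHEP without MYCN. The tables were scaled separately, line and batch cannot be told apart, and no test was made.

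In the depleted IMR-32 libraries CCT3 (166 RPKM) and CCT7 (118 RPKM) again came first, and TCP1 (70.5 RPKM) came before CCT4 (61.0 RPKM), with their libraries apart. CCT6A, CCT8, CCT5 and CCT2 followed with 57.8, 55.7, 48.0 and 45.3 RPKM, and of these CCT6A overlapped with CCT4 and with CCT8, and CCT5 with CCT2. In the SHEP libraries labelled wild type, CCT4 (304 RPKM), CCT7 (273 RPKM), CCT8 (267 RPKM) and CCT6A (255 RPKM) led and overlapped from each to the next, before CCT3 (208 RPKM), CCT2 (164 RPKM), CCT5 (156 RPKM) and TCP1 (132 RPKM). In those labelled 3A, CCT4 (356 RPKM) was apart from CCT7 (288 RPKM), CCT8 (275 RPKM), CCT3 (254 RPKM) and CCT6A (252 RPKM), which overlapped from each to the next. By RPKM, CCT2, CCT5 and TCP1 were the lowest 3 of the ring in all SHEP groups. TCP1 was the lowest by mean, though in the libraries labelled 3A it overlapped with CCT5. The places of CCT5 and CCT4 depend on the scaling by length. By mean CPM in SHEP without MYCN, CCT5 was the highest subunit (834 CPM), overlapping with CCT6A (812 CPM), and CCT4 held rank 5 (731 CPM). On that scale too, CCT2 and TCP1 were the lowest by mean in every SHEP group, and CCT3 the highest in IMR-32. Without MYCN, CCT2 (677 CPM) overlapped with CCT8 (686 CPM).

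**Figure D1:**
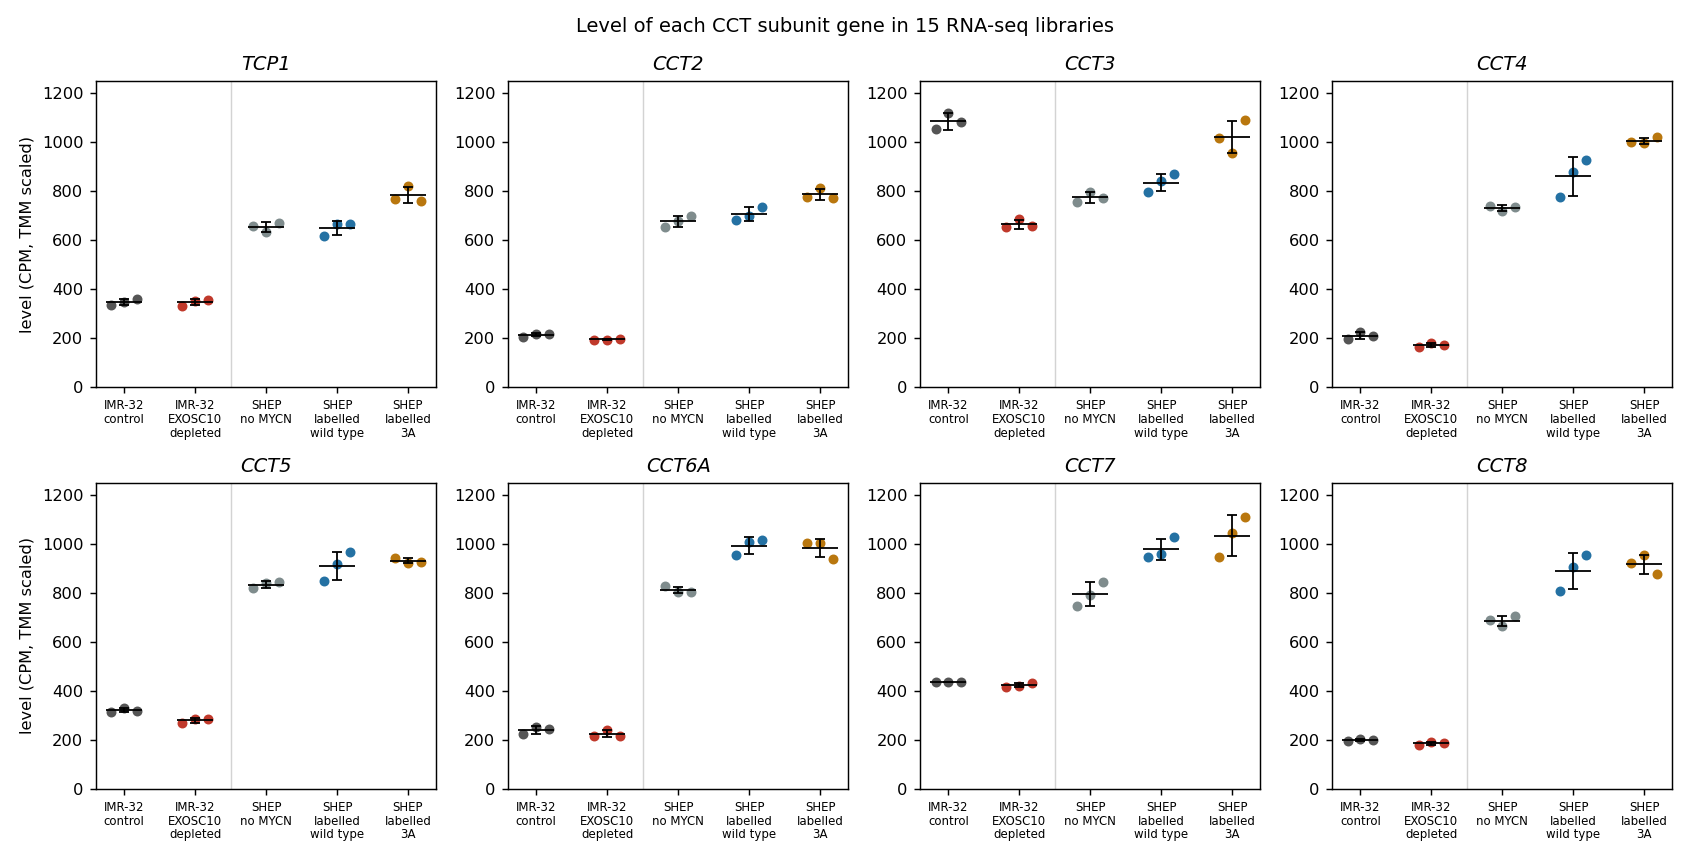
Level of each subunit gene in CPM (TMM scaled, axis from 0) in the 15 libraries. Points are libraries, and black bars are the mean and SD of 3. CCT3 is the only panel in which the IMR-32 control libraries (1052 to 1118 CPM) lie above the SHEP libraries without MYCN (755 to 798 CPM), and it has the largest drop between the IMR-32 groups.

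EXOSC10 depletion in IMR-32 was compared with the control to see how the chaperonin genes stood when the exosome's nuclear exonuclease was reduced. CCT3, CCT4, CCT5 and CCT2 fell and 0 of the 8 rose, where 13.7% of all genes tested were called lower and 13.5% higher. CCT3 had 1052, 1118 and 1084 CPM in the control libraries and 653, 687 and 657 CPM in the depleted ones. The groups were far apart. CCT3 fell by 38.7%, a log2 fold change of -0.71 (SE 0.04, edgeR adjusted p = 1.8e-24). Per kilobase, CCT3 was still the highest subunit in the depleted libraries, at 162 to 171 RPKM before CCT7 at 117 to 121 RPKM.

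The other calls were smaller. CCT4, with 196, 225 and 211 CPM in control and 163, 180 and 174 in depleted libraries, fell by 0.29 on the log2 scale (SE 0.05, edgeR adjusted p = 1.13e-05). CCT5, with 314, 332 and 320 against 269, 287 and 284 CPM, fell by 0.20 (SE 0.05, edgeR adjusted p = 4.29e-04). CCT2, with 207, 219 and 218 against 195, 192 and 199 CPM, fell by 0.13 (SE 0.05, edgeR adjusted p = 0.0365). In each of these genes every depleted library was below every control library. The CCT2 call is weak: it was lost with library totals in place of TMM (edgeR adjusted p = 0.0988), without a filter on low counts (0.0824), and on leaving out any depleted library or control library 2 or 3 (0.0605 to 0.126).

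For the remaining 4 subunits the test found no difference. CCT8 differed by -0.11 (95% interval -0.21 to -0.01, edgeR adjusted p = 0.109) and CCT6A by -0.09 (-0.19 to 0.01, adjusted p = 0.186), with CCT6A called only without control library 1 (0.0303). CCT7 differed by -0.05 (-0.13 to 0.04, edgeR adjusted p = 0.486) although its 3 control libraries, at 437 to 438 CPM, all lay above the depleted ones, at 418 to 432. TCP1 was nearest to 0, with 335 to 362 CPM in control and 333 to 355 CPM in depleted libraries and an interval of -0.09 to 0.09 (edgeR adjusted p = 0.966). In 6 of the 8 members the depleted libraries lay below the control libraries, against 19.7% of all genes. Replicate 1 was the lowest of its group in 7 of the 8 members in the control and in the depleted libraries alike. The median of the 8 differences was -0.12, that of all genes tested was -0.0011 and that of the 1685 genes with a mean log2 CPM of at least 7 was -0.03.

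The drop of CCT3 changed the make-up of the transcripts. Of the summed RPKM of the ring, CCT3 held 35.4% in control and 26.6% in depleted libraries, while CCT8 held 7.86 and 8.95% and TCP1 9.25 and 11.3%. The summed level of the 8 genes was 3059 ± 87.4 CPM in control and 2497 ± 65.4 CPM in depleted libraries (SD, n = 3). Without CCT3 the sums were 1974 ± 55.3 and 1831 ± 50.5 CPM (SD, n = 3). MYCN itself lay at 1086 to 1113 CPM in control and 594 to 605 CPM in depleted libraries (log2 difference -0.87, edgeR adjusted p = 7.5e-30). The adrenergic markers moved too, from a sum of 3440 to 3730 to one of 2150 to 2210 CPM, with 8 of the 10 called lower and 2 higher, and the mesenchymal markers summed to 614 to 647 and 803 to 832 CPM, with 3 of the 7 tested called higher, 1 lower and 3 not called. The part of either in the CCT differences was not tested.

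**Figure D2:**
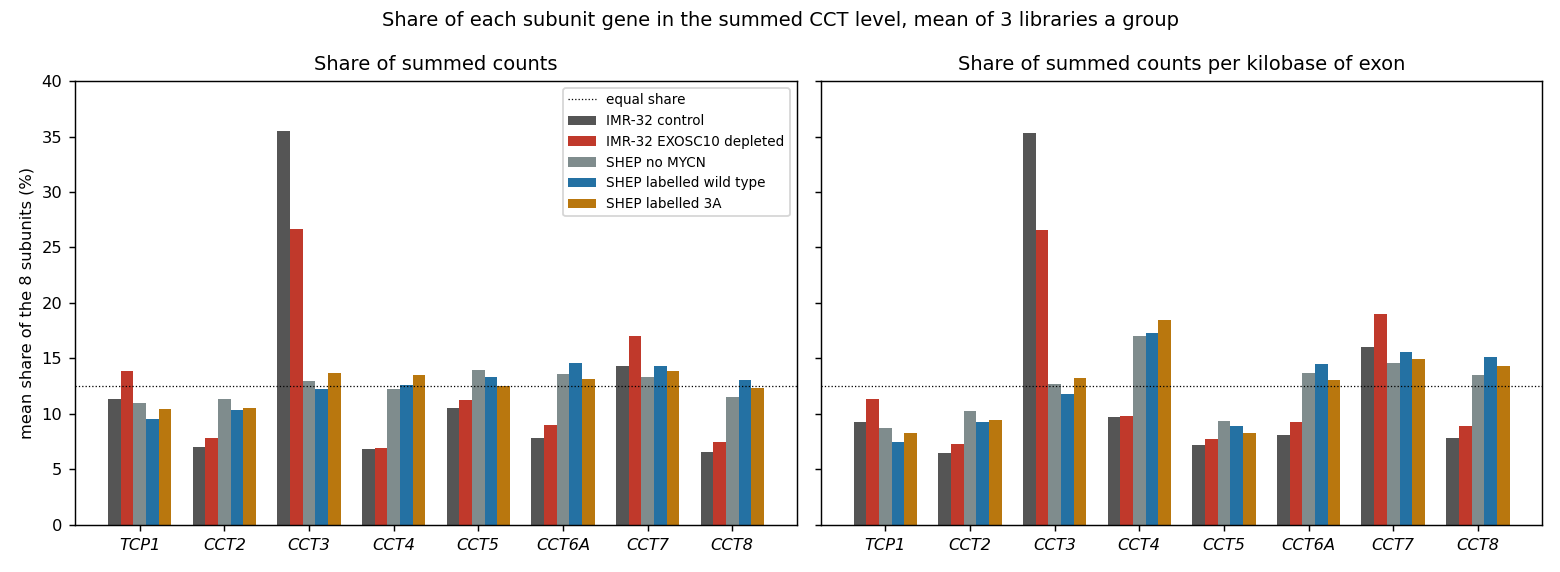
Share of each subunit gene in the summed level of the 8 genes, in percent, as mean of 3 libraries a group, with counts on the left and counts per kilobase of exon on the right. The dotted line marks an equal share. CCT3 stands out in IMR-32 (35.4% in control, 26.6% in depleted libraries per kilobase) and lies near the dotted line in SHEP.

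In SHEP, the libraries labelled wild type MYCN were compared with those without MYCN. CCT8, CCT7, CCT6A and CCT4 rose and 0 of the 8 fell, where 10.9% of all genes tested were called higher and 11.3% lower. CCT8 had 689, 665 and 705 CPM without MYCN and 810, 907 and 954 CPM in the libraries labelled wild type. Its groups did not overlap, and it rose by 0.38 on the log2 scale (SE 0.08, edgeR adjusted p = 0.00178). CCT6A had 827, 805 and 805 CPM against 954, 1007 and 1017 CPM, also apart, and rose by 0.29 (edgeR adjusted p = 0.0084). CCT7 had 749, 793 and 847 CPM against 946, 960 and 1029 CPM and rose by 0.30 (edgeR adjusted p = 0.0130). CCT4 had 740, 718 and 736 CPM against 775, 877 and 930 CPM and rose by 0.24 (edgeR adjusted p = 0.0405).

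The other subunits were not called. CCT5 differed by 0.13 (95% interval -0.03 to 0.29), CCT3 by 0.11 (-0.06 to 0.28), CCT2 by 0.06 (-0.10 to 0.22) and TCP1 by -0.01 (-0.17 to 0.15), with edgeR adjusted p = 0.269, 0.367, 0.630 and 0.949. In 5 of 8 members all libraries labelled wild type lay above all libraries without MYCN, against 18.5% of all genes tested. The median of the 8 differences was 0.18, that of all genes tested -0.0044 and that of the 1646 genes with a mean log2 CPM of at least 7 was 0.10.

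The library labelled wild type replicate 1 was the lowest of its group in 8 of the 8 members and replicate 3 the highest in 8 of the 8. CCT4 was not called with library totals (edgeR adjusted p = 0.0915), without a filter (0.0504), with the compared groups alone (0.058), or without any single compared library other than wild type replicate 1 (0.0957 to 0.151). CCT7 was not called without the no MYCN replicate 1 (edgeR adjusted p = 0.0841) or 2 (0.0576).

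The libraries labelled MYCN 3A showed the broadest difference. Against the same 3 libraries without MYCN, 7 of the 8 subunits rose and 0 fell, where 12.7% of all genes tested were called higher and 12.8% lower. CCT4 had 1003, 996 and 1020 CPM in the libraries labelled 3A, a tight group far above the 718 to 740 CPM without MYCN, and rose by 0.46 on the log2 scale (edgeR adjusted p = 3.8e-04). CCT8, at 923, 954 and 877 CPM, rose by 0.42 (edgeR adjusted p = 8.3e-04). CCT3, at 1016, 958 and 1090 CPM against 755, 798 and 771 CPM, rose by 0.40 (edgeR adjusted p = 0.00104). CCT7, at 945, 1044 and 1112 CPM, rose by 0.38 (edgeR adjusted p = 0.00245). All 4 held their call with each library left out and under every other setting tried.

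The other 3 calls were smaller and less steady. CCT6A had 1005, 1003 and 940 CPM and rose by 0.27 (edgeR adjusted p = 0.0117). TCP1 had 770, 820 and 760 CPM against 659, 633 and 671 CPM and rose by 0.26 (edgeR adjusted p = 0.0175). CCT2 had 775, 814 and 774 CPM against 655, 678 and 699 CPM and rose by 0.22 (edgeR adjusted p = 0.0409). All 3 were lost with library totals (edgeR adjusted p = 0.0572, 0.0845 and 0.191). CCT2 was lost without a filter on low counts (edgeR adjusted p = 0.086) and without any single compared library (0.0579 to 0.172), TCP1 without 3A replicate 2 or no MYCN replicate 1 or 2 (0.0647 to 0.0938), and CCT6A without 3A replicate 2 or no MYCN replicate 2 (0.0525 and 0.058).

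CCT5 differed by 0.16 with an interval of 0.00 to 0.32 (edgeR adjusted p = 0.141). In all 8 members, CCT5 included, the libraries labelled 3A lay above those without MYCN, against 19.3% of all genes tested. The median of the 8 differences was 0.33, that of all genes tested was -0.04 and that of the 1646 genes with a mean log2 CPM of at least 7 was 0.15. With library totals in place of TMM the median of all genes moved by -0.10 to -0.14, and the share of calls that were higher went from 49.7 to 29.7%. For the libraries labelled wild type that share went from 49.3 to 35.2%. The summed level of the ring was 5966 ± 97.5 CPM without MYCN, 6825 ± 371 in the libraries labelled wild type and 7464 ± 73.3 in those labelled 3A (SD, n = 3). Both comparisons used the same libraries without MYCN, so they are not independent of each other. The mesenchymal markers also differed between these groups: 5 of 10 were called higher and 3 lower in the libraries labelled wild type, 1 higher and 5 lower in those labelled 3A, and 7 higher and 2 lower between the forms. Their part in the CCT differences was not tested.

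**Figure D3:**
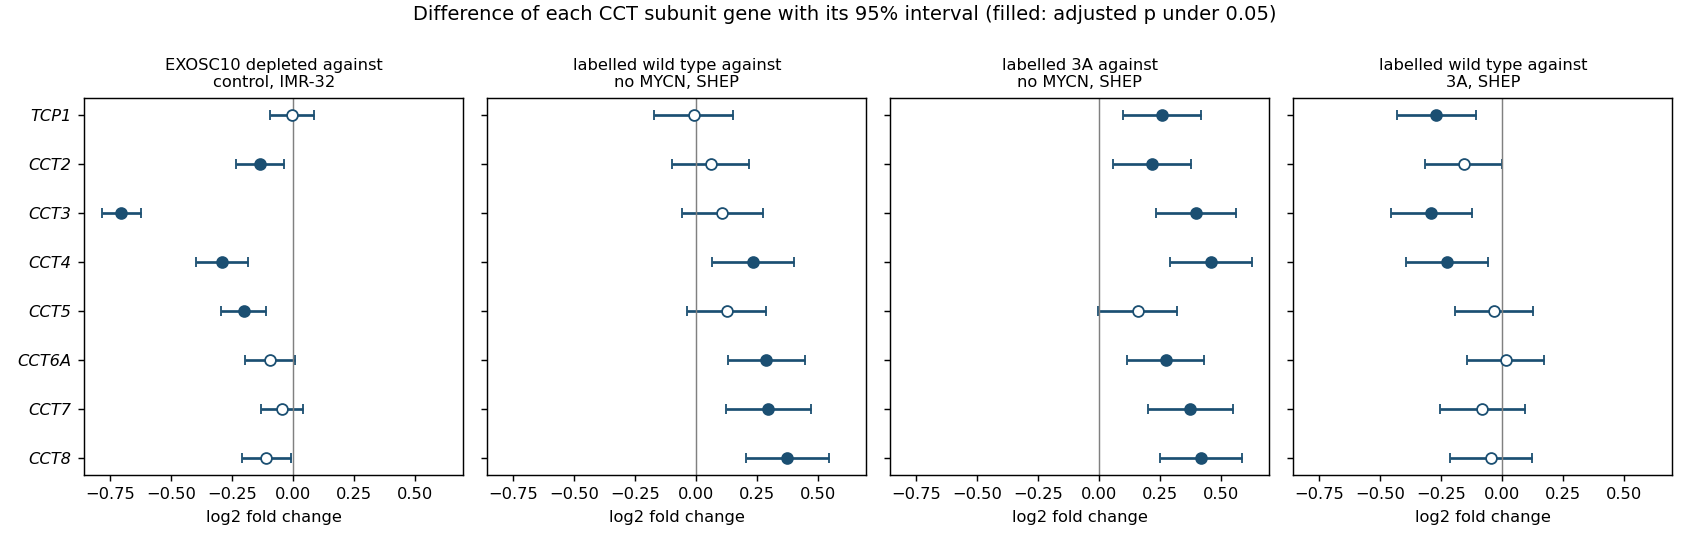
Log2 fold change of each subunit gene with its 95% interval in the 4 comparisons, filled where the adjusted p of edgeR's test was under 0.05. CCT3 is set apart on EXOSC10 depletion (-0.71), and on the third panel, labelled 3A against no MYCN, CCT5 (0.16) is the only open point.

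The forms were then compared directly, since a call with one form and not with the other does not show that they differ. TCP1, CCT3 and CCT4 were lower in the libraries labelled wild type than in those labelled 3A, and 0 of the 8 were higher, where 14.5% of all genes tested were called lower and 15.8% higher. CCT3 had 797, 840 and 869 CPM in the former against 958 to 1090 CPM in the latter and differed by -0.29 (edgeR adjusted p = 0.0086). TCP1 had 617, 666 and 667 CPM against 760 to 820 CPM and differed by -0.27 (edgeR adjusted p = 0.0117). CCT4 had 775, 877 and 930 CPM against 996 to 1020 CPM and differed by -0.23 (edgeR adjusted p = 0.0393). In each of the 3 the groups did not overlap. The median of the 8 differences was -0.12 and that of all genes tested was 0.0030. That of the 1646 genes with a mean log2 CPM of at least 7 was -0.06.

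For the other 5 subunits the test found no difference between the forms. CCT2 differed by -0.16 (95% interval -0.32 to 0.00, edgeR adjusted p = 0.129), and it is the fourth member whose groups did not overlap, against 19.9% of all genes for this direction. CCT7 differed by -0.08, CCT8 by -0.04, CCT5 by -0.03 and CCT6A by 0.02. CCT4 lost its call without a filter (edgeR adjusted p = 0.0654), with the compared groups alone (0.0984) and without any single compared library other than wild type replicate 3 (0.0686 to 0.127). TCP1 lost its call without 3A replicate 2 (edgeR adjusted p = 0.068), and CCT3 kept its call in every setting tried. Of the summed RPKM of the ring, CCT3 held 12.7% without MYCN, 11.8% in the libraries labelled wild type and 13.2% in those labelled 3A, and TCP1 held 8.73, 7.51 and 8.25%.

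The cochaperones that serve the ring were read from lists of related genes. The shares of all genes called higher and lower, against which their counts are to be read, were 13.5 and 13.7% on EXOSC10 depletion, 10.9 and 11.3% in the libraries labelled wild type, 12.7 and 12.8% in those labelled 3A, and 15.8 and 14.5% between the forms. Of the 6 prefoldin subunits, 0 were called higher and 3 lower on EXOSC10 depletion, 0 either way in the libraries labelled wild type, and 4 higher and 0 lower in those labelled 3A. PFDN2 had 111.6, 106.6 and 93.4 CPM in control and 70.8, 66.7 and 65.2 CPM in depleted IMR-32 libraries and fell by 0.62 (edgeR adjusted p = 6.94e-12). PFDN4 fell by 0.60 and PFDN6, whose groups overlapped, by 0.39 there (edgeR adjusted p = 5.8e-05 and 0.045). With the 3A label, PFDN4 rose by 0.58, PFDN2 by 0.49, PFDN5 by 0.39 and PFDN6 by 0.39 (edgeR adjusted p = 2.0e-04, 4.82e-04, 0.00672 and 0.0137). The same 4 were lower in the libraries labelled wild type than in those labelled 3A, with differences of -0.45 for PFDN4, -0.33 for PFDN2, -0.31 for PFDN5 and -0.32 for PFDN6 (edgeR adjusted p = 0.00116, 0.00768, 0.0210 and 0.0307). In PFDN5 and PFDN6 the libraries of the forms overlapped. The prefoldin medians in the 4 comparisons were -0.23, 0.10, 0.39 and -0.32, beside -0.12, 0.18, 0.33 and -0.12 for the CCT ring.

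The prefoldin-like complex had 1, 0, 2 and 1 of its 3 listed genes called in the same order of comparisons. PDRG1 fell by 0.53 on EXOSC10 depletion (edgeR adjusted p = 3.91e-04), while UXT differed by -0.23 and URI1 by -0.06. In the libraries labelled wild type URI1 differed by 0.20, UXT by 0.14 and PDRG1 by 0.10. UXT rose by 0.57 and URI1 by 0.30 in the libraries labelled 3A (edgeR adjusted p = 6.26e-04 and 0.0126), and PDRG1 differed by 0.28 (0.0584). Between the forms UXT was lower, with a difference of -0.43 (edgeR adjusted p = 0.00402), and PDRG1 differed by -0.18 and URI1 by -0.10. Of the 3 phosducin-like genes tested, TXNDC9 alone was called, and only between the forms (-0.34, edgeR adjusted p = 0.0113).

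Tubulin folding cofactors act after CCT on its tubulin clients, and 5 of the 6 listed were matched and tested. On EXOSC10 depletion TBCD rose by 0.18 and TBCA fell by 0.19 (edgeR adjusted p = 0.00143 and 0.0349). ARL2, a GTPase that works with these cofactors, rose by 0.36 in the libraries labelled wild type and by 0.44 in those labelled 3A (edgeR adjusted p = 0.0194 and 0.00567). TBCA rose by 0.51 in the libraries labelled 3A and was lower between the forms, with a difference of -0.53 (edgeR adjusted p = 5.07e-04 and 2.16e-04).

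Genes of the client lists named beyond the 3 with the smallest p of a comparison were named after their values were seen. On EXOSC10 depletion 10 of the 16 actin and tubulin genes tested fell and 1 rose, where 13.7% of all genes were lower and 13.5% higher. ACTB fell by 0.58, TUBA1B by 0.31 and ACTG1 by 0.26 (edgeR adjusted p = 7.93e-21, 9.98e-09 and 6.2e-07). ACTA2, smooth muscle actin, rose by 2.34 (edgeR adjusted p = 4.42e-05) from a low level. It had 0.39 to 0.59 CPM in control and 1.82 to 3.02 CPM in depleted libraries. In the libraries labelled wild type 1 of 17 rose and 4 fell, beside 10.9 and 11.3% of all genes, led by TUBA4A (-2.04), TUBA1A (-0.66) and TUBB2A (-0.85), with edgeR adjusted p = 1.8e-06, 3.05e-05 and 4.45e-05, while TUBB6 rose by 0.52 and TUBB3 fell by 0.39. In those labelled 3A 1 of 17 rose and 4 fell, beside 12.7 and 12.8% of all genes. TUBB fell by 0.65 and ACTR2 by 0.49 and TUBA1C rose by 0.38 (edgeR adjusted p = 7.93e-05, 6.3e-04 and 0.00521), and TUBA1A fell by 0.34 and ACTG1 by 0.23. Between the forms 6 of 17 were higher and 5 lower, beside 15.8 and 14.5% of all genes, with TUBA4A at -1.82, TUBB3 at -0.54 and TUBB at 0.58 (edgeR adjusted p = 1.08e-05, 4.38e-05 and 1.2e-04). The medians of this list were -0.20, -0.09, -0.16 and 0.09. Tubulin and actin genes have near-identical copies, so the values of single genes are uncertain.

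Of the 14 WD40 and other reported clients, 2 rose and 5 fell on EXOSC10 depletion (13.5 and 13.7% of all genes), and 0 rose and 4 fell in the libraries labelled wild type (10.9 and 11.3%). In those labelled 3A 0 rose and 6 fell (12.7 and 12.8%), and between the forms 1 was higher and 0 lower (15.8 and 14.5%). On EXOSC10 depletion CCNE1 (cyclin E) rose by 0.80, and VHL, the tumour suppressor whose folding needs CCT, fell by 0.36, as did the G protein subunit gene GNB4 by 0.55 (edgeR adjusted p = 2.0e-09, 1.08e-06 and 0.00103). STAT3 rose there by 0.19, and BBS9, BBS7 and GNB1 fell by 0.70, 0.36 and 0.14. In the libraries labelled wild type, BBS2, BBS9 and STAT3 fell by 0.78, 0.85 and 0.37 (edgeR adjusted p = 5.8e-04, 0.00423 and 0.00858), and FZR1 fell by 0.34. In those labelled 3A, GNB1, BBS2 and PLK1 fell by 0.33, 0.58 and 0.30 (edgeR adjusted p = 0.00336, 0.00745 and 0.0102), BBS9, STAT3 and RPTOR fell by 0.74, 0.30 and 0.39, and between the forms GNB1 was higher by 0.44 (2.05e-04). The medians of the list were -0.10, -0.08, -0.17 and -0.03.

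**Figure D4:**
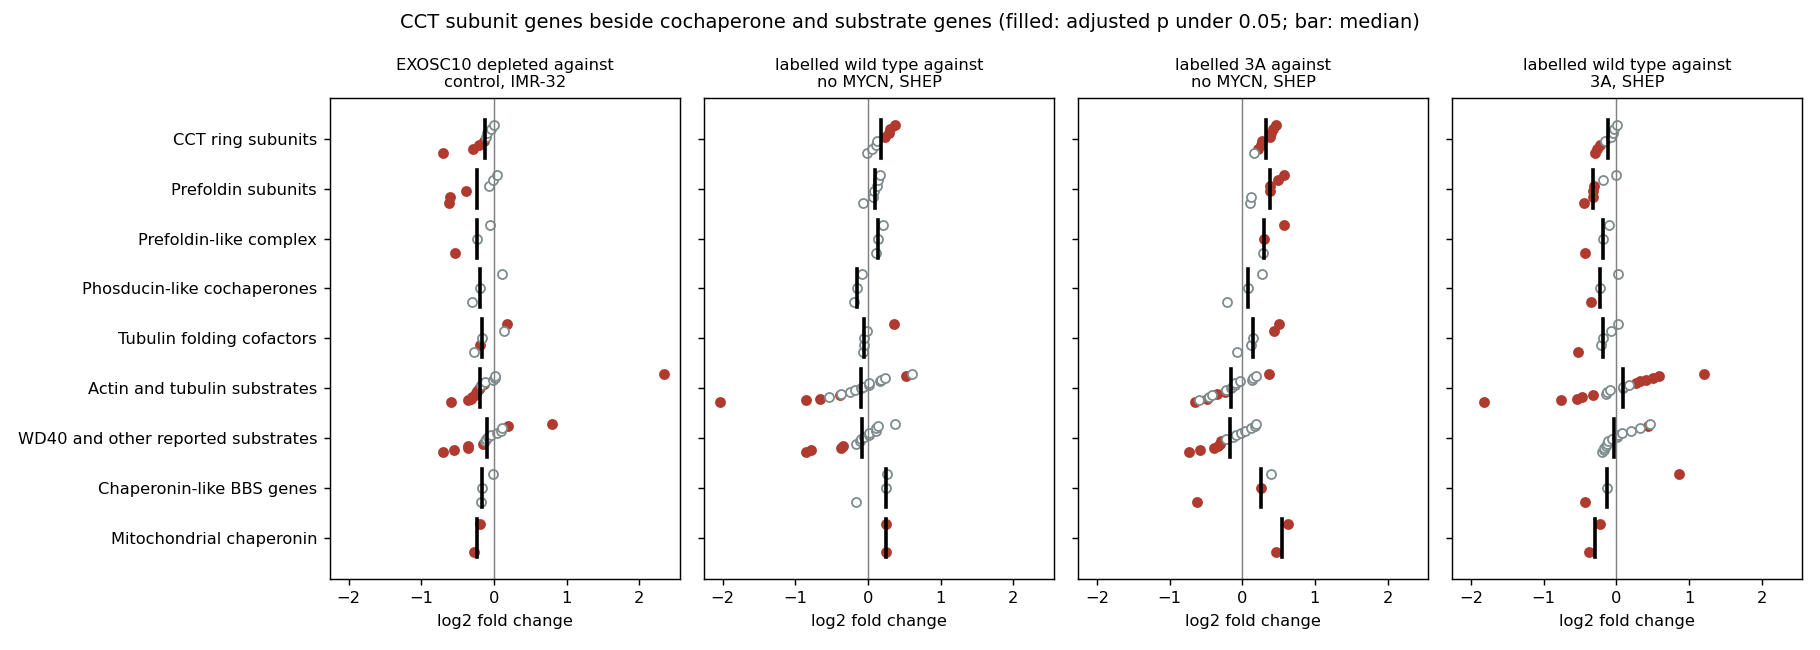
Log2 fold change of the CCT subunit genes and of related gene lists in the 4 comparisons, with 1 point a gene, filled where the adjusted p was under 0.05, and a black bar at each list's median. In the third panel the medians of the CCT ring (0.33), prefoldin (0.39) and the mitochondrial chaperonin (0.55) lie right of 0 and those of the client lists left of it.

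Other chaperonins give a scale for these values. The mitochondrial chaperonin, made of HSPD1 (HSP60) and HSPE1 (HSP10), was called in all 4 comparisons. HSPD1 fell by 0.19 and HSPE1, whose groups overlapped, by 0.28 on EXOSC10 depletion (edgeR adjusted p = 3.97e-04 and 8.06e-04). They rose by 0.25 and 0.24 in the libraries labelled wild type (edgeR adjusted p = 0.0248 and 0.0473) and by 0.47 and 0.62 in those labelled 3A (2.47e-04 and 3.71e-05), and differed by -0.22 and -0.38 between the forms (0.0389 and 0.00195). Of the chaperonin-like genes of the BBSome assembly complex, MKKS differed by -0.16, BBS10 by -0.01 and BBS12 by -0.18 on EXOSC10 depletion, and by -0.17, 0.25 and 0.26 in the libraries labelled wild type, with none called. In the libraries labelled 3A, MKKS rose by 0.26 and BBS10 fell by 0.62 (edgeR adjusted p = 0.0417 and 0.00555), and between the forms MKKS was lower (-0.43) and BBS10 higher (0.87), with edgeR adjusted p = 0.00147 and 2.15e-04. BBS12, with low counts, differed by 0.39 and -0.13 there and was called in neither. The testis paralog CCT6B lay at or below 1.08 CPM in every library and was tested in IMR-32 alone (0.85, edgeR adjusted p = 0.323), and CCT8L2 had 0 counts in all 15.

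The members were also compared with one another across the 15 libraries, after centring each table on its own mean. CCT4 tracked the mean of the other 7 most closely (Pearson r = 0.984), followed by CCT2 (0.909), CCT5 (0.902), CCT8 (0.858), CCT6A (0.785), CCT7 (0.767), CCT3 (0.718) and TCP1 (0.627). These values describe 15 libraries of 5 groups, and libraries of a group share their condition. Among 4272 genes with a mean log2 CPM of at least 5 in both tables, those most like the mean of the ring were PTMA (prothymosin alpha, r = 0.972), PPA1 (a pyrophosphatase, 0.971), HSPD1 (0.969), HSP90AB1 (a cytosolic HSP90, 0.966) and RPL5 (a ribosomal protein, 0.966).

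Of the 8 members, 6 have a gene on the other strand that starts within 1000 bases of their own start, and the values of these neighbours are set beside those of the members. CCT6A and PSPH start 26 bases apart. PSPH, an enzyme of serine synthesis, had 31.3, 27.2 and 32.7 CPM in control and 15.9 to 16.8 CPM in depleted IMR-32 libraries and fell by 0.90 (edgeR adjusted p = 1.7e-10), where CCT6A differed by -0.09. CCT7 and PRADC1 start 182 bases apart, and in the libraries labelled wild type PRADC1 fell by 0.51 (edgeR adjusted p = 0.0054) while CCT7 rose by 0.30. Between the forms PRADC1 was lower too, with a difference of -0.48 (edgeR adjusted p = 0.0076), where CCT7 differed by -0.08. CCT5 and ATPSCKMT start 24 bases apart. In the libraries labelled wild type, ATPSCKMT fell by 0.46 against no MYCN (edgeR adjusted p = 0.047), where CCT5 differed by 0.13. TCP1 and MRPL18, a mitochondrial ribosomal protein gene, start 63 bases apart. MRPL18 rose by 0.26 in the libraries labelled 3A and differed by -0.27 between the forms (edgeR adjusted p = 0.0304 and 0.0218), beside 0.26 and -0.27 for TCP1. CCT4 and COMMD1 start 80 bases apart, and COMMD1 was lower between the forms, with a difference of -0.51 (edgeR adjusted p = 0.0028), beside -0.23 for CCT4. In the libraries labelled wild type, COMMD1 differed by -0.25 (edgeR adjusted p = 0.153), with all 3 below those without MYCN, where CCT4 rose by 0.24, and in those labelled 3A it differed by 0.26 (0.109). MIR3913-1, 511 bases from CCT2, had no counts.

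Copies of the subunit genes elsewhere in the genome can take or lend reads. Of 15 annotated copies 14 had a count. In IMR-32 the copies of CCT6A summed to 5.87% of the counts of CCT6A, mostly CCT6P1 (3.50%) and CCT6P3 (2.36%), and in SHEP to 1.15%. The copies of TCP1 summed to 1.28% and those of CCT8 to 0.869% in SHEP, against 0.00916 and 0.0372% in IMR-32. The single copy of CCT3 had no counts in either line. The small nucleolar RNAs SNORA20 and SNORA29, whose exons overlap those of TCP1 on its strand, held at most 0.245% of its counts.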

How the data were processed

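The 8 members, the related lists and the tests were chosen with earlier results of these data known. Of the 89 samples of the series, the 15 RNA-seq samples with a column in the 2 count tables were used, and the other 74 were not analysed here. The deposited values are raw counts per gene, from STAR 2.7.10a and featureCounts 2.0.3 on hg19, per the submitters' processing notes. Per the file headers, SHEP was counted by strand (setting 2) against Ensembl release 87, with at least 10 overlapping bases, and a read over several genes counted for each. Such settings are not given for IMR-32 in the sources used here. Read ends were counted singly, since 65.5 to 77.1% of the counts from 1 to 10 were even, so counting error is understated. Columns were matched to samples by doxycycline status or group and by replicate number. Replicates of a group differed by more than counting noise.

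Counts passed filterByExpr, were scaled with TMM and tested with the robust quasi-likelihood F test of edgeR 4.0.16 (limma 3.58.1, R 4.3.3), Benjamini-Hochberg adjusted over all genes tested at 0.05. The 9 SHEP libraries were fitted together. Symbols matched 51996 of 57905 rows. RPKM is CPM over the union exon length in the tables. The scripts were tested on simulated data. Alternatives were library totals, DESeq2 1.42.0 and its size factors, no filter, the replicate number as a block, the compared groups alone and each library left out. They were read for the members and for the number of all genes called. Calls of single genes outside the ring were not checked in this way. Named genes are the members, EXOSC10 and MYCN, in each list up to 3 called genes with the smallest p and every gene of lists of at most 3, the 5 most alike genes, neighbours within 1000 bases, and copies with counts. No protein sequences were analysed here.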

Additional observations from a re-analysis of the deposited data

How the results depend on the processing

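The fall of CCT3, CCT4 and CCT5 on EXOSC10 depletion, the rise of CCT8 and CCT6A in the libraries labelled wild type, and the rise of CCT4, CCT8, CCT3 and CCT7 in those labelled 3A kept their calls in every setting tried. The counts of called members were less steady. With each library left out, 3 to 5 members were called lower on EXOSC10 depletion and 2 to 4 higher in the libraries labelled wild type, with 2 without no MYCN replicate 1 or 2. In those labelled 3A 4 to 6 were called higher, and 4 with library totals, and 1 to 3 were called lower between the forms. All genes called in the libraries labelled 3A numbered 3806, and 2166 to 3617 with a library left out, with 2166 without no MYCN replicate 1 and 2508 without no MYCN replicate 2. Directions turned only for members near 0 that were not called. TCP1 on EXOSC10 depletion had 0.0208 with library totals, 0.00055 with DESeq2 size factors, 0.00056 with DESeq2 and -0.0334 to 0.0245 with a library left out. In the libraries labelled wild type CCT2 had -0.0071 with library totals, and TCP1 had -0.0325 to 0.0283 with a library left out. Between the forms, leaving out a library gave -0.0754 to 0.0166 for CCT5, -0.0148 to 0.0447 for CCT6A and -0.0961 to 0.0208 for CCT8. The cause of these shifts was not tested. Leaving out a library left its group with 2, so these fits also had fewer libraries to test with.

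Replicate numbers were not taken to pair the samples, since residuals of same-numbered libraries correlated at only -0.03 to 0.14 over 12 pairs, and those of different numbers at -0.13 to 0.06 over 24. In IMR-32, however, every library correlated best with its own number (0.025 to 0.0436, against -0.0313 to -0.0121 for other numbers), a hint from the data and not the design. In SHEP this did not hold for every library, though some values were larger. Libraries without MYCN and labelled wild type correlated at 0.138, -0.0024 and 0.113 for replicates 1, 2 and 3. Those without MYCN and labelled 3A correlated at 0.119, -0.0327 and 0.0619, and those of the 2 forms at 0.039, -0.0037 and 0.0818. With the replicate block, 5251 genes were called on EXOSC10 depletion, 4184 in the libraries labelled wild type, 4794 in those labelled 3A and 5414 between the forms, against 4639, 3315, 3806 and 4527 without it. The block added CCT8 on EXOSC10 depletion (edgeR adjusted p = 0.0353), CCT5 in the libraries labelled 3A (0.0438, and 0.0481 with DESeq2) and CCT2 between the forms (0.0391).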
